A study of Mus musculus with 12 samples.

Results

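Hippocampal libraries of mice given an Hp1bp3 hairpin virus, and with a low count of the Hp1bp3 transcript, were compared with all libraries that received a scrambled hairpin. A knockdown (KD) library entered the comparison where its normalized Hp1bp3 count was under 6000, which 4 of the 6 KD libraries met. These 4 are called effective KD, and they were set against the 6 scrambled (Ctrl) libraries, so that 10 of the 12 libraries of the series were used. The mice were adult males of C57BL/6J (B6) or DBA/2J (D2), aged 3 to 5 months at injection, with tissue taken at least 6 weeks later. The KD mice received AAV9-shRNA-Hp1bp3, an adeno-associated virus with a short hairpin RNA against Hp1bp3, and the Ctrl mice received AAV9-scrmb-shRNA, so that a virus, an injection and a hairpin were common to all groups. Each strain gave 3 Ctrl and 2 effective KD libraries, with 1 KD library of each strain (B6 KD 3 and D2 KD 3) left out. The sources describe a single hairpin vector against the target. Virus was delivered to the dorsal hippocampus while RNA came from the whole hippocampus, so a library can hold tissue that the virus did not reach. In such bulk samples, fewer cells of a type and less RNA per cell cannot be told apart. In the labels each library carries a mouse number of its own, and the p-values measure the spread between these mice.

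Hp1bp3 encodes heterochromatin protein 1 binding protein 3, a nuclear protein related to linker histones that binds HP1 proteins and compact chromatin. Many of the genes described here belong to the interferon system, in which sensors of foreign or misplaced nucleic acid start the secretion of interferon, and interferon receptors then act through transcription factors on a shared set of antiviral genes. In brain these genes are induced in microglia, astrocytes and neurons alike.

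The target came first, because it defined the groups. Hp1bp3 (ENSMUSG00000028759) lies on the plus strand of chromosome 4 at 138216296 to 138244683 in GRCm38. In B6 its normalized count was 9372, 8826 and 9348 in the Ctrl libraries and 5539 and 5429 in the effective KD libraries. In D2 it was 6871, 6504 and 7002 in Ctrl and 5337 and 4878 in effective KD. The effective KD mean was therefore 40.3% below the Ctrl mean in B6 and 24.8% below it in D2, and D2 Ctrl itself lay lower than B6 Ctrl. The KD libraries left out held 7633 in B6 and 6941 in D2, and the Ctrl library nearest to the limit held 6504. The member nearest to the limit held 5539. Expressed against the Ctrl mean of its own strain, the left-out B6 library stood at 83.1%, close to the 78.6% of D2 KD 1, while the left-out D2 library stood at 102%. The fitted log2 fold change over the 10 libraries was -0.57 (SE 0.07). This value chose the libraries and carries no test.

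**Figure D1:**
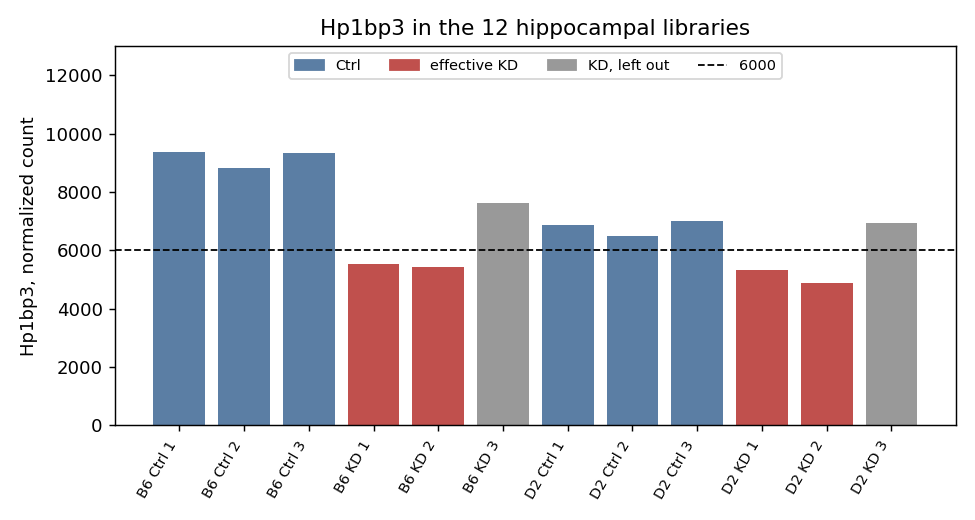
Normalized Hp1bp3 count in each of the 12 libraries as bars, B6 left and D2 right, with Ctrl in blue, effective KD in red and left-out KD libraries in grey, and the limit of 6000 dashed. The 4 effective KD libraries lie between 4878 and 5539, while the 6 Ctrl libraries lie between 6504 and 9372.

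Between 18.2 M and 39.4 M expected counts were assigned to genes in a library. The make-up of the libraries was described with marker lists, scored as the mean log2(CPM + 1). The hippocampal subfield list scored 5.86 to 6.70 in Ctrl and 5.73 to 6.31 in effective KD. The thalamus list scored 3.38 to 4.35 in Ctrl and 3.68 to 4.05 in effective KD. The neuron list scored 8.94 to 9.09 in Ctrl and 8.68 to 9.06 in effective KD. The choroid plexus list, whose main gene Ttr encodes the thyroid hormone carrier of that epithelium, scored 1.97 to 6.29 in Ctrl and 2.01 to 6.28 in effective KD. Ttr itself was at 1465, 72291 and 3125 in B6 Ctrl, 3113 and 108899 in B6 effective KD, 4226, 105311 and 136815 in D2 Ctrl and 132772 and 806 in D2 effective KD, so both groups held libraries rich and poor in it. D2 Ctrl 3 stood apart from the other Ctrl libraries in interferon genes, as given with the results below.

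Over the 10 libraries 15911 genes were fitted with strain as a blocking factor, and 770 of them (4.84%) had an adjusted p under 0.05 in edgeR's quasi-likelihood test. Hp1bp3 is 1 of the 770. Of these called genes 489 were higher and 281 lower in effective KD. The median log2 fold change was 1.15 among the higher genes and -0.39 among the lower, and at least a 2-fold difference was reached by 270 of the higher and 6 of the lower genes. Because the libraries were picked by the measured target, these calls describe the 10 libraries and do not count as a test of the hairpin. The test by label, over all 12 libraries, called 0 of 15853 genes with edgeR, with 2936 at an unadjusted p under 0.05 and a lowest adjusted p of 0.105. On the same 12 libraries limma-voom called 0 genes and DESeq2 905. All 761 called genes that were also fitted over 12 libraries kept their sign there, and 744 of them had an unadjusted p under 0.05. The 12 libraries hold the same 10, so this was largely fixed in advance and is no support for the calls. The adjusted p printed beside each gene below is from the edgeR test over the 12 labelled libraries. Fold changes are from the 10 libraries unless stated.

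The 10-library calls depended on the left-out D2 library. Adding the left-out D2 library to the fit left 2 called genes, and adding the left-out B6 library gave 877, of which 643 were among the 770. Each single library mattered as well. The count was 136 without B6 KD 1, 166 without B6 KD 2 and 323 without D2 KD 2. It was 1251 without D2 KD 1. Among Ctrl libraries it was 259, 268 and 211 without B6 Ctrl 1, 2 and 3, and 313, 397 and 1783 without D2 Ctrl 1, 2 and 3. No called gene changed sign in any of these fits, which share most of their libraries with the 10.

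The left-out libraries were then placed on the called genes, as the median log2 ratio of normalized counts to the Ctrl mean of the same strain. Over the 489 higher genes this ratio was 1.34 in B6 KD 1 and 1.39 in B6 KD 2, and it was 0.57 in D2 KD 1 and 0.87 in D2 KD 2. The left-out B6 library stood at 0.82 and the left-out D2 library at -0.10, against a range of -0.19 to 0.24 in the Ctrl libraries. Over the 280 lower genes other than Hp1bp3 the effective KD libraries ran from -0.48 to -0.31, the left-out B6 library stood at -0.50 and the left-out D2 library at -0.03. The B6 library was thus outside the Ctrl range, below both effective KD libraries of its strain on the higher genes and next to them on the lower ones, and on the higher genes the D2 library was within the Ctrl range. The genes were called against these same Ctrl libraries, so the placement is a description with no test. In the B6 library 437 of the 489 higher genes exceeded every B6 Ctrl library, and 266 of the 280 lower genes fell short of every one. In the D2 library these counts were 65 and 66. Over all fitted genes 34.1% exceeded and 40.4% fell short of every Ctrl library of its strain in the B6 library, and 18.0% and 18.5% did so in the D2 library.

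**Figure D2:**
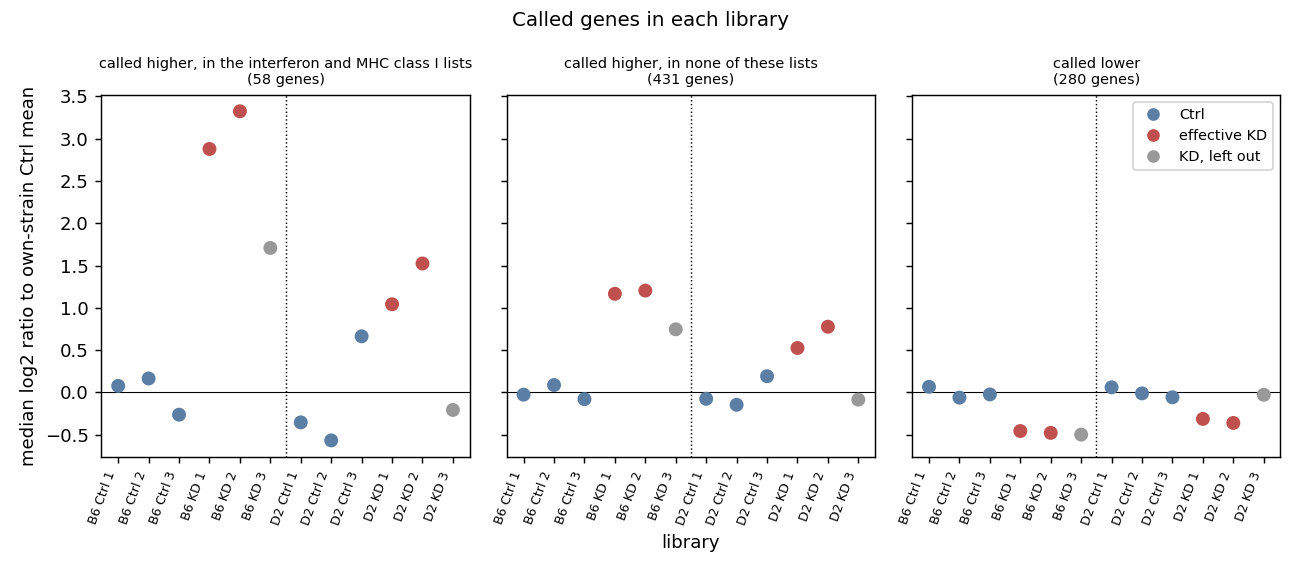
Median log2 ratio of each library to its own strain's Ctrl mean, for called higher genes of the interferon and MHC class I lists, for the other called higher genes and for called lower genes. Ctrl is blue, effective KD red and left-out KD grey. The left-out B6 library sits at 1.71, 0.75 and -0.50 in the 3 panels, and the left-out D2 library at -0.21, -0.08 and -0.03.

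Genes of the interferon response formed the upper end of the comparison. Of 26 fitted antiviral effectors, 24 were called higher and none lower, where 3.07% of all genes were called higher, and the median log2 fold change was 2.95 against 0.00 over all genes fitted. The 2 not called were Cmpk2 and Adar. In 22 of the 26, every effective KD library lay above every Ctrl library of its strain, as did 4.93% of all fitted genes. A further 5.32% lay below Ctrl in the same sense, 10.2% together. Effectors named by size included Ifi27l2a and Ifi44, small interferon-induced proteins, and Usp18, the protease that removes ISG15 and damps the interferon receptor. Oasl2 and Oas1a, also named by size, belong to the oligoadenylate synthetase family, which activates RNase L on double-stranded RNA. Oas1g of that family was named by size too, but it is not in the list and counts among the other called higher genes.

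Isg15, the ubiquitin-like protein itself, was at 49.2, 49.4 and 40.98 in B6 Ctrl and 1069 and 1285 in B6 effective KD. D2 held 47.96, 59.96 and 174 in Ctrl and 332 and 402 in effective KD. Effective KD and Ctrl did not overlap in either strain, although D2 Ctrl 3 was the highest Ctrl library at 174. The log2 fold change was 3.40 (SE 0.56, adjusted p = 0.110). Oasl2 stood at 262, 340 and 233 in B6 Ctrl against 6508 and 7995 in effective KD, and at 295, 209 and 850 in D2 Ctrl and 1858 and 2756 in D2 effective KD. It had a log2 fold change of 3.62 (SE 0.54, adjusted p = 0.110). Oasl2, like the other genes chosen by size or smallest p over all fitted genes, was chosen free of overlap in both strains. Usp18 differed by 3.45 (SE 0.60, adjusted p = 0.110) and Ifi44 by 3.89 (SE 0.66, adjusted p = 0.110). Ifi27l2a had the largest difference of the list, 4.27 (SE 0.50, adjusted p = 0.110). Oas1a and Oas1g differed by 3.61 and 3.84, and reads of these close relatives could be divided between them by the estimation. Xaf1, Slfn2 and Ifitm3 had the smallest p-values of the other members, with log2 fold changes of 2.29, 2.61 and 2.44. In Pydc4, a pyrin domain gene (4.32, SE 0.46, adjusted p = 0.110), the difference was carried by B6, with 10.7, 22.99 and 10.5 in Ctrl and 283 and 389 in effective KD. Its D2 values were at most 7.89 in any of these libraries and near 0 in Ctrl, where a fitted fold change depends on the prior count.

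Interferon-induced genes are classically driven from a promoter element that holds GAAANNGAAA in either orientation. In RefSeq promoters of GRCm38.p6, taken from 250 bases before to 50 bases after the start, these letters were found on either strand for 65 of the 347 called higher genes with a promoter (18.7%) and for 5 of the 211 called lower genes (2.37%). The share was 3.72% of 11760 fitted genes and 3.99% of all promoters. It was 11 of 19 antiviral effectors and 9 of 10 interferon-inducible GTPases. Outside the interferon and MHC class I lists it was 42 of 305 called higher genes (13.8%), a set not cleared of further interferon-induced genes. Other lists held a match in 3 of 18 sensor and signalling genes, 3 of 13 MHC class I genes and 2 of 12 activated microglia genes. A match was also found in 1 of 15 reactive astrocyte genes and in 3 of 12 immediate early genes (25%). In the immediate early list 15 of 16 log2 fold changes were negative. Overlapping matches were counted once per promoter, and a match is a description of letters only. The windows below are shown because their genes had the smallest p-values among called list members with a match upstream of the start. They run 5′ to 3′ on the strand of the gene in GRCm38.p6, with matches in capitals.
Oas1a (chr5:120907526-120907560, minus strand, last match 4 bases before the start): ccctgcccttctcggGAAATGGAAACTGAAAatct
B2m (chr2:122147533-122147572, plus strand, last match 129 bases before the start): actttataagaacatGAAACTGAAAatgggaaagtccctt
Stat2 (chr10:128270261-128270300, plus strand, last match 212 bases before the start): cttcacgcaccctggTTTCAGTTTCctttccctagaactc
Ifit1 (chr19:34640770-34640828, plus strand, last match 75 bases before the start): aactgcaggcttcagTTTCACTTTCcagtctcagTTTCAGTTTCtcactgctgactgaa
Gbp3 (chr3:142559984-142560029, plus strand, last match 29 bases before the start): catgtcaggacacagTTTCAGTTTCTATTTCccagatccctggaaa
Isg15 (chr4:156200860-156200911, minus strand, last match 56 bases before the start): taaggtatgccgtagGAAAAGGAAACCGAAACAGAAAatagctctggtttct

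Ifit1, which binds foreign RNA ends, was at 123, 159 and 113 in B6 Ctrl and 2719 and 3768 in B6 effective KD, and at 138, 202 and 505 in D2 Ctrl and 1066 and 1161 in D2 effective KD. This gave a log2 fold change of 3.39 (SE 0.55, adjusted p = 0.110). Of the 16 interferon-inducible GTPases, which attack the vacuoles of intracellular pathogens, all 16 had positive log2 fold changes, with a median of 1.87, and 10 were called higher. Only 5 of them were free of overlap in both strains. Gbp3, with 2 overlapping matches in its window, read 235, 247 and 171 in B6 Ctrl, 2323 and 2978 in B6 effective KD, 253, 170 and 462 in D2 Ctrl and 712 and 942 in D2 effective KD. Gbp3 thus had a log2 fold change of 2.63 (SE 0.43, adjusted p = 0.110). For Irgm1 it was 2.01 (adjusted p = 0.110), and for Tgtp2 and Gvin1, which have near-identical copies, 2.65 and 1.65.

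Sensors and signalling genes of the pathway split in size. Of 25 fitted, 11 were called higher and none lower, with a median log2 fold change of 0.65. Irf7, the transcription factor that amplifies interferon output, was at 92.7, 100 and 57.5 in B6 Ctrl against 2132 and 3328 in effective KD, and at 107, 128 and 262 in D2 Ctrl and 662 and 842 in D2 effective KD. Irf7 was also among the genes chosen free of overlap, and its log2 fold change was 3.72 (SE 0.56, adjusted p = 0.110). Zbp1, a sensor of Z-form nucleic acid that can trigger cell death, differed by 3.84 (SE 0.67, adjusted p = 0.110). Dhx58, an RNA helicase of the RIG-I family, differed by 2.49 (SE 0.28, adjusted p = 0.110). Irf9 and Stat2, factors of the interferon response, differed by 1.47 and 1.11 on the log2 scale.

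MHC class I presentation, which displays peptides to CD8 T cells, was higher as a group. Of 15 fitted genes 13 were called higher, and Tap2 and H2-Q6 were not. The median log2 fold change was 1.73, and in 11 genes effective KD lay above Ctrl in both strains. B2m, the invariant light chain, was at 2981, 2890 and 2174 in B6 Ctrl and 14121 and 16900 in B6 effective KD. D2 held 2582, 2134 and 4707 in Ctrl and 6454 and 7983 in effective KD. The nearest Ctrl library was D2 Ctrl 3, and the log2 fold change was 1.91 (SE 0.30, adjusted p = 0.112). For H2-D1, a class I heavy chain, it was 2.22 (SE 0.37, adjusted p = 0.112), and for Nlrc5, the transactivator of class I genes, 2.52 (SE 0.39, adjusted p = 0.110). H2-Q7 differed by 2.93, with reads that its class I relatives may share. Its D2 counts were far lower than those of B6, and class I genes vary between these strains. Of 7 class II genes none was called. Cd74, the class II invariant chain, ranged from 72.4 to 450 in B6 Ctrl and from 615 to 1534 in B6 effective KD, while in D2 the groups overlapped.

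**Figure D3:**
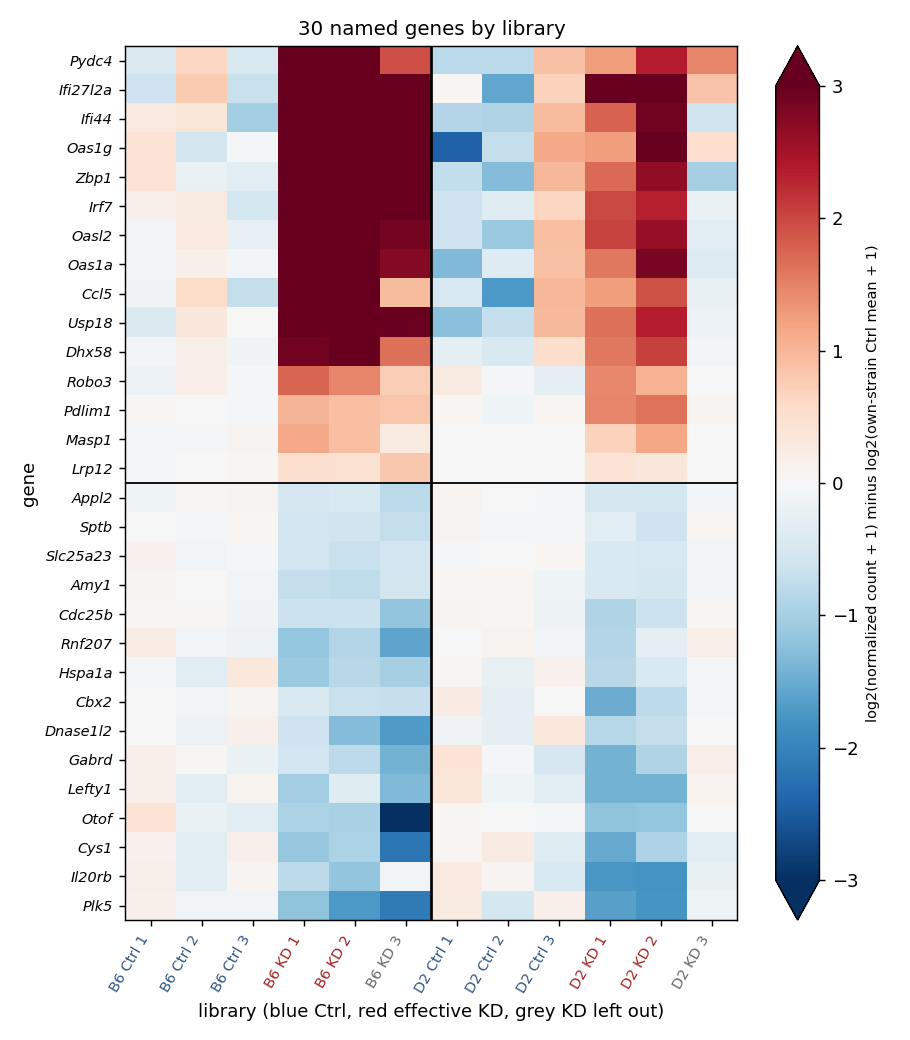
Difference of log2(normalized count + 1) from the own-strain Ctrl mean for the 30 genes named by the rule (rows) in the 12 libraries (columns, B6 left, D2 right). Red is higher and blue lower, with colours ending at 3 and -3. The effective KD columns differ from Ctrl in every row, as the choice of genes required, while D2 KD 3 resembles Ctrl.

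These 30 genes were the 10 largest differences and the 5 smallest p-values in each direction, among 573 called genes with a mean count of at least 50 and no overlap in either strain. Over the 12 labelled libraries their adjusted p ran from 0.110 to 0.201 and their unadjusted p from 4.83e-05 to 0.0214.

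Across libraries the interferon genes also differed within Ctrl. Over the 58 called genes of the interferon and MHC class I lists the median log2 ratio was 0.66 in D2 Ctrl 3, against -0.57 and -0.35 in the other D2 Ctrl libraries and -0.26 to 0.16 in B6 Ctrl. It was 2.88 and 3.32 in the B6 effective KD libraries and 1.04 and 1.52 in those of D2. D2 Ctrl 3 thus narrowed the D2 difference, and on this median it did not reach the effective KD libraries. In single genes it did, as Gbp6 and Iigp1 were higher in D2 Ctrl 3 than in D2 KD 1. The 58 genes were called against this same Ctrl library. The left-out B6 library stood at 1.71, below both effective KD libraries of its strain, and the left-out D2 library at -0.21. Choroid plexus content followed another order. D2 KD 1 and B6 KD 2 were rich in Ttr, and D2 KD 2 and B6 KD 1 were poor. Within the libraries poor in choroid plexus transcripts (3 Ctrl and 2 effective KD), 224 genes were called, 147 of them among the 770. These were B6 Ctrl 1, B6 Ctrl 3, D2 Ctrl 1, B6 KD 1 and D2 KD 2, a split made after the data were seen. They are part of the libraries that gave the 770, so the overlap was largely fixed in advance. The part of choroid plexus content in the calls was not tested.

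Of homeostatic microglia genes 16.7% were called higher, of activated microglia genes 20% and of chemokines 8.33%, where 3.07% of all genes were. All 12 homeostatic and all 15 activated microglia genes had positive log2 fold changes over the 10 libraries. In D2 alone 7 and 12 of them were positive. Complement genes had positive log2 fold changes in both strains, 11 of 11 in each. Of these 5 were called higher, with a median log2 fold change of 1.19, and none was free of overlap in both strains. C1qa, the microglial starter of the classical cascade, was at 1425, 1489 and 1132 in B6 Ctrl and 4871 and 4949 in effective KD. In D2 it was at 1494, 988 and 2399 in Ctrl and 2103 and 3601 in effective KD, where D2 Ctrl 3 exceeded D2 KD 1. The log2 fold change was 1.37 (SE 0.29, adjusted p = 0.149). C4b followed the same pattern, with 11698 in D2 Ctrl 3 above 10366 in D2 KD 1, and differed by 1.69 overall (SE 0.39, adjusted p = 0.167). C4b has a near-identical copy.

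Of 12 homeostatic microglia genes 2 were called higher, among them Aif1 (1.05, SE 0.24, adjusted p = 0.168), and the median was 0.44. P2ry12, a defining purinergic receptor of resting microglia, differed by 0.06 (SE 0.13) and was not called. Of 15 activated microglia genes 3 were called higher, with a median of 0.87. Ctss, the lysosomal protease cathepsin S, was the member free of overlap in both strains, with 2968, 2923 and 2538 in B6 Ctrl, 9846 and 9652 in B6 effective KD, 3700, 2715 and 5239 in D2 Ctrl and 5470 and 7004 in D2 effective KD. Its log2 fold change was 1.27 (SE 0.24, adjusted p = 0.150). Cst7 and Axl were called as well, at 2.65 and 0.58. Among 12 chemokines Ccl5, a T cell attractant, was called higher at 3.56 (SE 0.73, adjusted p = 0.141). The median of the 12 was 1.59, and 10 were positive in each strain.

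Of 16 lymphocyte markers 10 passed the low-count filter and none was called. Cd3e, a defining part of the T cell receptor complex, was at 0, 2.30 and 0 in B6 Ctrl and 22.9 and 40.6 in B6 effective KD, and at 0.94, 0 and 2.22 in D2 Ctrl and 0 and 1.58 in D2 effective KD. Both B6 effective KD libraries exceeded every B6 Ctrl library, and all of these D2 counts were under 3. The share of lymphocyte and microglial transcripts moved with the immune genes in B6, and its part in their difference was not tested. The lymphocyte score ran from 0.23 to 0.37 in Ctrl and from 0.28 to 1.10 in effective KD, and the homeostatic microglia score from 4.55 to 5.07 and from 4.75 to 5.60.

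Reactive astrocyte genes all had positive log2 fold changes, 17 of 17, with a median of 1.06. Of these 3 were called higher (17.6%), where 3.07% of all genes were. In D2 alone 14 were positive, with a median of 0.61. The list scored 2.87 to 4.58 in Ctrl and 4.28 to 4.94 in effective KD, so the groups overlapped. The left-out B6 library scored 5.74, above all of these, and the median over the 12 labelled libraries was 1.40. Serpina3n, a secreted protease inhibitor, was at 1493, 1963 and 1662 in B6 Ctrl against 10881 and 7544 in effective KD, and at 4533, 3943 and 7724 in D2 Ctrl and 8261 and 9971 in D2 effective KD. The groups did not overlap, and the log2 fold change was 1.65 (SE 0.34, adjusted p = 0.113). Timp1, an inhibitor of metalloproteinases, differed by 2.63 (SE 0.54, adjusted p = 0.134) and S100a10 by 0.64 (SE 0.14, adjusted p = 0.180). Gfap, the intermediate filament that defines reactive astrocytes, read 17365, 20850 and 16723 in B6 Ctrl and 63914 and 34357 in B6 effective KD, but 28536, 13082 and 66028 in D2 Ctrl and 46191 and 41516 in D2 effective KD. D2 Ctrl 3 held more Gfap than any of the 4 effective KD libraries. General astrocyte genes (11), myelin genes (12), oligodendrocyte precursor genes (7) and vascular genes (16) had no call, with medians of 0.09, -0.08, 0.02 and 0.20.

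Several higher genes outside the immune lists had the smallest p-values among those not already chosen by size. Pdlim1, an adaptor of the actin cytoskeleton, was at 194, 189 and 182 in B6 Ctrl and 382 and 353 in B6 effective KD. In D2 it was at 216, 190 and 215 in Ctrl and 577 and 648 in effective KD. The Ctrl libraries lay close together, and the effective KD libraries stood clear of them, as the choice of genes required. The log2 fold change was 1.28 (SE 0.12, adjusted p = 0.110). Robo3, an axon guidance receptor, was at 731, 948 and 783 in B6 Ctrl, 2751 and 2284 in B6 effective KD, 777, 632 and 528 in D2 Ctrl and 1757 and 1336 in D2 effective KD. It differed by 1.45 (SE 0.14, adjusted p = 0.110). Lrp12, a member of the low density lipoprotein receptor family, differed by 0.43 (SE 0.05, adjusted p = 0.110), and Masp1, a protease of the lectin pathway of complement, by 0.99 (SE 0.11, adjusted p = 0.110). The left-out D2 library held 221 of Pdlim1, 638 of Robo3, 2084 of Lrp12 and 166 of Masp1, each within or next to its Ctrl libraries.

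Neuropeptides were among the higher genes too. Npy, neuropeptide Y of interneurons and of activated granule cells, was at 969, 795 and 859 in B6 Ctrl and 2558 and 1615 in B6 effective KD. In D2 it was at 792, 846 and 994 in Ctrl and 1926 and 3075 in effective KD, and the left-out libraries held 3036 in B6 and 746 in D2. No overlap was seen, and the log2 fold change was 1.39 (SE 0.16, adjusted p = 0.110). Pnoc, the precursor of nociceptin, differed by 0.81 (SE 0.12, adjusted p = 0.115). Of the 12 interneuron genes these were called higher and Pvalb, the calcium buffer of fast-spiking cells, was called lower (-0.73, SE 0.16, adjusted p = 0.331). Sst and Vip were not called.

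The called lower genes differed by smaller amounts. Plk5, a polo-like kinase relative expressed in brain, led them, with 685, 585 and 577 in B6 Ctrl and 267 and 187 in B6 effective KD. D2 held 718, 418 and 661 in Ctrl and 193 and 174 in effective KD. The lowest Ctrl library lay well above the highest effective KD library, and the log2 fold change was -1.56 (SE 0.17, adjusted p = 0.110). Otof, a calcium sensor of vesicle release in hair cells, was at 651, 422 and 384 in B6 Ctrl and 250 and 247 in B6 effective KD, and at 353, 344 and 335 in D2 Ctrl and 149 and 154 in D2 effective KD. It differed by -1.06 (SE 0.15, adjusted p = 0.174). B6 KD 3 held 56.5, less than any other library. Il20rb, a cytokine receptor chain, Cys1, a protein of the primary cilium, and Lefty1, a secreted inhibitor of Nodal, had log2 fold changes of -1.35, -1.11 and -1.02. Those of Dnase1l2, the Polycomb gene Cbx2, the inducible heat shock gene Hspa1a and Rnf207 ran from -0.85 to -0.77. Hspa1a has a near-identical neighbour.

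Further lower genes were named because they had the smallest p-values among those not already chosen by size. Slc25a23, a mitochondrial carrier of ATP-magnesium and phosphate, was at 16411, 14017 and 14294 in B6 Ctrl and 9959 and 9430 in B6 effective KD, and at 14351, 14568 and 15304 in D2 Ctrl and 10826 and 10616 in D2 effective KD. The log2 fold change was -0.53 (SE 0.06, adjusted p = 0.110). Sptb, a beta spectrin of the membrane skeleton, read 13633, 13060 and 14154 in B6 Ctrl and 9157 and 8974 in B6 effective KD, and 13643, 12409 and 12350 in D2 Ctrl and 10118 and 8331 in D2 effective KD, a difference of -0.52 (SE 0.07, adjusted p = 0.110). For both genes every effective KD library was below every Ctrl library, within a strain by the choice of genes and also across strains. Cdc25b, a phosphatase that activates cyclin-dependent kinases, differed by -0.70, Appl2, an endosomal adaptor, by -0.49, and Amy1, an amylase, by -0.61. Their adjusted p-values were 0.112, 0.110 and 0.110.

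Neuronal lists held few calls. Of 15 general neuron genes Camk2a, the kinase subunit abundant at excitatory synapses, was called lower, where 1.77% of all genes were. It was at 135632, 113993 and 125535 in B6 Ctrl and 95066 and 81534 in B6 effective KD, and at 143195, 133360 and 115046 in D2 Ctrl and 107202 and 92881 in D2 effective KD. The log2 fold change was -0.43 (SE 0.09, adjusted p = 0.110). Of 12 GABA-A receptor subunits Gabrd, the delta subunit of tonic inhibition, was called lower. Gabrd read 911, 831 and 708 in B6 Ctrl and 552 and 475 in B6 effective KD, and 844, 617 and 447 in D2 Ctrl and 236 and 339 in D2 effective KD, a difference of -0.89 (SE 0.19, adjusted p = 0.197). No subunit was called higher.

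Among ion channels 3 of 30 potassium and HCN genes and 2 of 23 sodium and calcium channel genes were called lower and none higher, with list medians of -0.17 and -0.23. Kcnc1, a fast delayed rectifier of rapidly firing neurons, differed by -0.49 (SE 0.09, adjusted p = 0.112). Kcnh7 was also called, at -0.47, with counts in D2 of 63.9, 61.7 and 53.3 in Ctrl against 1922, 1781 and 1927 in B6 Ctrl. Scn3b, an auxiliary sodium channel subunit, was at 10553, 8416 and 9666 in B6 Ctrl, 6048 and 5395 in B6 effective KD, 10332, 9067 and 7111 in D2 Ctrl and 5784 and 6130 in D2 effective KD, without overlap. It differed by -0.64 (SE 0.11, adjusted p = 0.120), and Cacnb3, a calcium channel beta subunit, by -0.43 (SE 0.10, adjusted p = 0.112). Of 20 presynaptic genes Cplx1, the complexin of fast release, was called lower at -0.35 (SE 0.08, adjusted p = 0.177), although D2 KD 2 and D2 Ctrl 3 overlapped.

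The glutamate receptor and postsynaptic scaffold lists had no call. All 15 fitted postsynaptic scaffold genes had negative log2 fold changes, with a median of -0.22, and the strain medians were -0.35 in B6 and -0.12 in D2. Of 30 glutamate receptor genes 23 had negative values, with a median of -0.16. This came from B6, where the median was -0.33 and 4 genes were positive, while in D2 the median was -0.01 and 15 genes were positive. Gria1 and Gria2, the main AMPA receptor subunits, differed by -0.26 (SE 0.10) and -0.18 (SE 0.13). Camk2b and Shank1 were at -0.39 (SE 0.11) and -0.29 (SE 0.10). The 12 subfield markers had a median of -0.13, and none was called. In B6 their median was -0.24 and 0 were positive, while in D2 the median was 0.06 and 7 were positive.

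**Figure D4:**
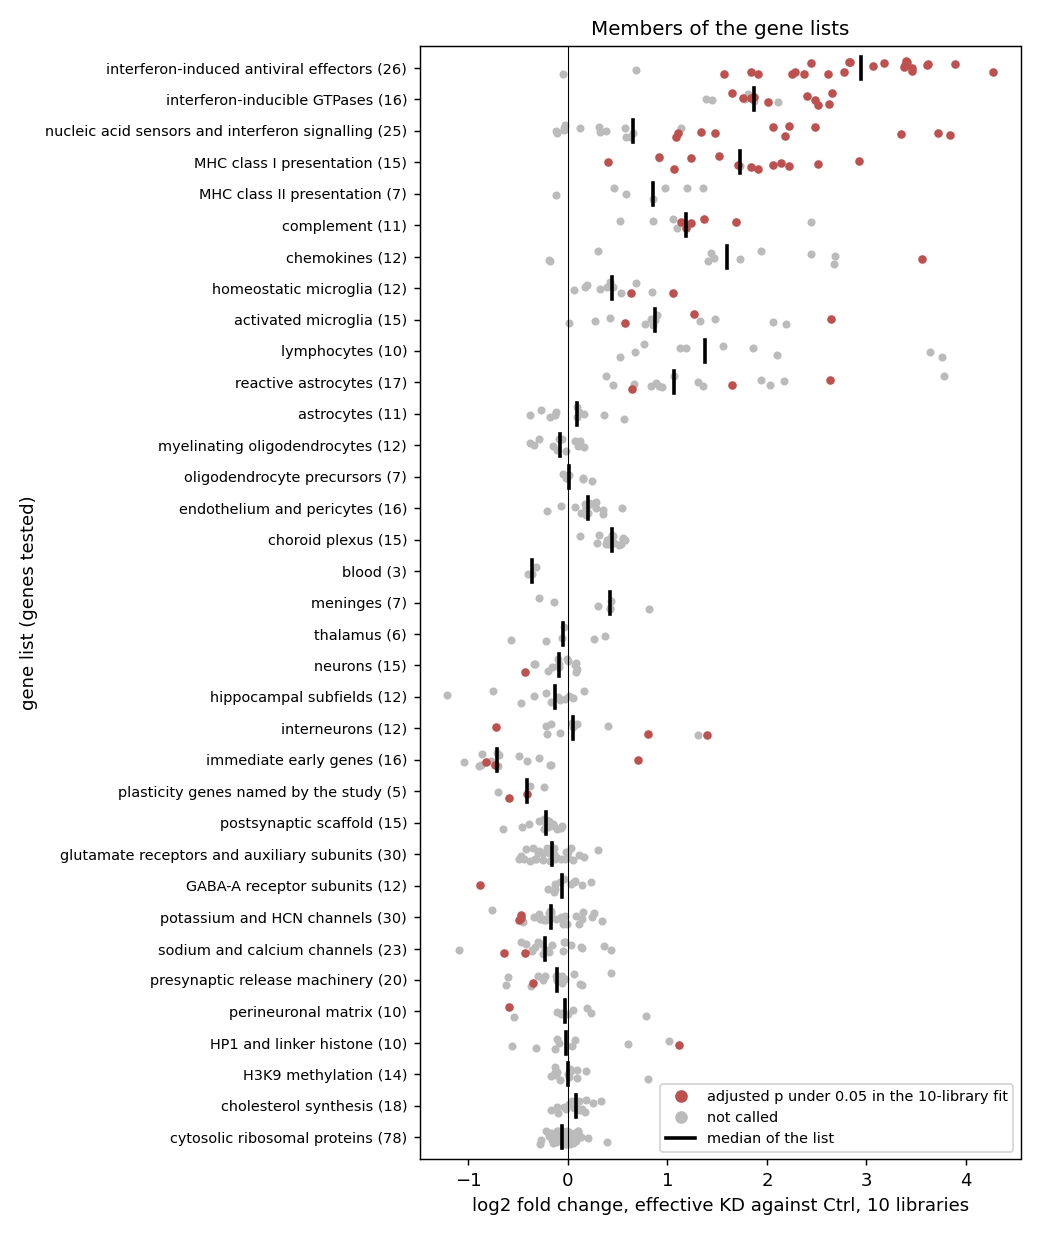
Log2 fold change of each fitted gene of the lists in the 10 libraries, with genes called in red, other genes in grey and the list median as a black bar. The antiviral effectors have a median of 2.95 and the immediate early genes one of -0.71, while the ribosomal protein list (78 genes) has one of -0.06.

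Immediate early genes, which neurons switch on within minutes of activity, had a median of -0.71, and 15 of 16 log2 fold changes were negative. The median was -0.94 in B6 but -0.24 in D2, where 5 genes were positive, and -0.33 over the 12 labelled libraries. The score of the list, a mean log2(CPM + 1), was 5.57 in B6 KD 3, inside the B6 Ctrl range of 5.41 to 5.63. Fos and Egr1 were called lower and Bdnf higher. Fos was at 903, 1245 and 843 in B6 Ctrl and 511 and 478 in B6 effective KD, and at 514, 459 and 423 in D2 Ctrl and 300 and 365 in D2 effective KD, with no overlap within a strain. Its log2 fold change was -0.73 (SE 0.15), but it depended on the choice of libraries. B6 KD 3 held 1541, more than every Ctrl library, and over 12 libraries the value was -0.16 (adjusted p = 0.782). Egr1 differed by -0.82 (SE 0.19, adjusted p = 0.324), with D2 Ctrl 3 below the effective KD libraries of D2. Bdnf, the neurotrophin released by activity, went the other way, from 1438, 1421 and 1683 in B6 Ctrl to 2128 and 2390 in effective KD, and from 1219, 1168 and 1544 in D2 Ctrl to 2477 and 2106 in D2 effective KD. Bdnf differed by 0.70 (SE 0.10, adjusted p = 0.115). B6 KD 3 held the highest Bdnf of all, 4955.

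The study picked out 5 plasticity genes from these samples, so their direction here is not independent evidence. All 5 were lower and 2 were called. Bcan, the brain proteoglycan brevican, was at 7759, 6841 and 6607 in B6 Ctrl and 4116 and 5047 in effective KD, and at 8148, 7089 and 9517 in D2 Ctrl and 5579 and 5400 in D2 effective KD. The groups did not overlap, and the log2 fold change was -0.60 (SE 0.10, adjusted p = 0.110). Jph3, a junctophilin that links the endoplasmic reticulum to the plasma membrane, read 9963, 8618 and 9112 in B6 Ctrl and 6492 and 6391 in B6 effective KD, and 9630, 8779 and 9290 in D2 Ctrl and 7740 and 6998 in D2 effective KD, a difference of -0.41 (SE 0.07, adjusted p = 0.110). Arc, which drives AMPA receptor endocytosis, was at 4335, 5679 and 5215 in B6 Ctrl and 2343 and 1708 in B6 effective KD, but at 2806, 1855 and 2159 in D2 Ctrl and 2445 and 1653 in D2 effective KD, where the groups overlapped. Its log2 fold change was -0.71 (SE 0.25, adjusted p = 0.434), and it was -1.31 in B6 and -0.15 in D2. Dlg4, the scaffold PSD-95, differed by -0.24 (SE 0.08, adjusted p = 0.166) and Shisa9, an AMPA receptor partner, by -0.38 (SE 0.14, adjusted p = 0.182). Neither was called.

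Genes close to Hp1bp3 in function held 1 further call. Of 10 fitted HP1 and linker histone genes, beside Hp1bp3 itself, only Hist1h1c, a linker histone H1, was called, and it was higher. It was at 575, 808 and 464 in B6 Ctrl and 2110 and 1452 in B6 effective KD, and at 506, 521 and 890 in D2 Ctrl and 749 and 1239 in D2 effective KD, where the groups overlapped. Its log2 fold change was 1.11 (SE 0.27, adjusted p = 0.177). The HP1 genes Cbx1, Cbx3 and Cbx5 differed by -0.13, 0.04 and -0.11, with SEs of 0.08, 0.06 and 0.07. None of 14 H3K9 methylation genes was called (median 0.00), nor any of 18 cholesterol synthesis genes (median 0.08) or 78 ribosomal protein genes (median -0.06). Of the perineuronal matrix list of 10 genes, Bcan was the called member.

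Each strain was then fitted against its own Ctrl libraries, which the other strain does not share. In B6 the 2 effective KD libraries differed from Ctrl in 912 genes (5.73%), 617 higher (3.88%) and 295 lower (1.85%). In D2 they differed in 7 genes (0.044%), all higher, with 1767 at an unadjusted p under 0.05. The interaction, which asks whether the strains differ in the response, called 0 of 15911 genes with edgeR, with 1474 at an unadjusted p under 0.05. It called 0 with limma-voom and 117 with DESeq2. Of the 617 genes higher in B6, 578 (93.7%) had a positive log2 fold change in D2, as did 51.2% of all genes, and of the 295 lower in B6, 272 (92.2%) had a negative one, as did 48.7% of all genes. Their medians were 1.52 in B6 and 0.46 in D2 for the higher genes, and -0.48 and -0.19 for the lower. Set against each other over the 15911 genes, the B6 and D2 differences gave a Pearson r of 0.44 and a Spearman rho of 0.36, as a description, since genes are not independent replicates.

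**Figure D5:**
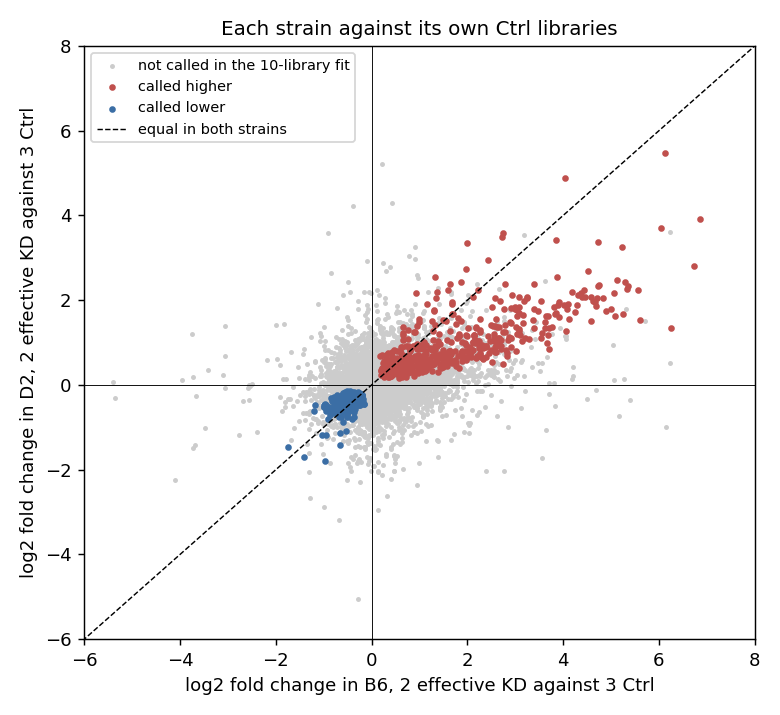
Log2 fold change of effective KD against Ctrl in B6 (x axis) and D2 (y axis) for 15911 genes, with genes called higher in the 10-library fit in red, called lower in blue and others in grey, and equality dashed. Most red genes lie between the x axis and the dashed line, larger in B6 than in D2, and the medians of the 617 genes higher in B6 are 1.52 and 0.46.

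By list, the antiviral effectors had medians of 4.0 in B6 and 1.79 in D2, MHC class I genes 2.55 and 0.92, and complement 1.63 and 0.70. Interferon genes were thus positive in both strains and larger in B6, a difference that no single named gene passed in the interaction test. Hp1bp3 itself differed by -0.73 in B6 and -0.41 in D2.

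The 7 genes called in D2 held no member of the interferon lists. They were Pdlim1, Cdkn1a, Ret, Ache, Slc36a1, Vgf and Vnn3, named because they were the only calls. Ret, a receptor tyrosine kinase for glial-derived neurotrophic factor, was at 347, 377 and 281 in D2 Ctrl and 842 and 870 in D2 effective KD, and at 140, 131 and 145 in B6 Ctrl and 217 and 217 in B6 effective KD. Its log2 fold change was 1.36 in D2 (SE 0.13) and 0.66 in B6 (SE 0.13). Cdkn1a, a cell cycle inhibitor, was at 224, 303 and 256 in D2 Ctrl and 668 and 793 in D2 effective KD, and at 360, 314 and 261 in B6 Ctrl and 548 and 685 in B6 effective KD, differing by 1.49 in D2 and 1.00 in B6. Vgf, a secreted neuropeptide precursor, was at 4672, 5295 and 4337 in D2 Ctrl and 8877 and 9439 in D2 effective KD. In B6 it was at 5833, 4957 and 5291 in Ctrl and 6402 and 5228 in effective KD, where the groups overlapped, and it was the 1 gene of the 7 not called over both strains. Without D2 Ctrl 3 the D2 comparison called 314 genes. Over all 3 D2 KD libraries and 3 D2 Ctrl libraries it called 0.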

How the data were processed

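Whole hippocampus of B6 and D2 mice was profiled by mRNA sequencing in 12 libraries, grouped by the strain and treatment labels (3 per group). Replicate numbers follow deposit order and pair nothing. Per the methods, the authors trimmed reads, aligned B6 and D2 reads to separate strain genomes and estimated expression with RSEM. The submitters' processing notes name RSEM 1.2.12, Bowtie2 2.2.0, DESeq2 and GRCm38. The deposited expected counts (RSEM estimates per gene, not normalized) were rounded to whole numbers. The deposited signal per gene is the authors' DESeq2 normalized count. It gave whole reads for 100% of 266784 values within 0.01 reads once multiplied by 1 size factor per library. A shared barcode led to a second sequencing run, and which samples lack reads joined from both runs is not given. Alignment to separate genomes limits level comparisons between strains, so differences were taken within strains.

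Fits used edgeR 4.0.16 in R 4.3.3 (quasi-likelihood F-test, TMM, filterByExpr, robust), with Benjamini-Hochberg adjusted p under 0.05 called. The 10-library fit had strain and treatment terms. The 12-library fit by label was the test. Strain results came from 1 mean per group. Standard errors are the log2 fold change over the square root of F and approximate. Alternatives included DESeq2 1.42.0 and limma 3.58.1 (voom). On simulated counts for 15790 genes the 10-library fit called 52.2% of genes changed 1.5-fold, 88.1% at 2-fold and 98.5% at 4-fold. There were 6 false calls. The simulation drew genes independently, with no effect shared across a library and no choice of libraries by Hp1bp3. Its rates may therefore not hold for the real libraries. Replicates differed beyond sampling noise (chi-square per degree of freedom 23.5 to 110), so all libraries counted separately. Symbols turned into dates in the expected counts (27 genes) were restored by identifier.

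Named genes were Hp1bp3, the 10 largest differences and 5 smallest p-values per direction among called genes with a mean count of at least 50 and no overlap in either strain (unnamed gene models passed over), up to 4 members per list (called with the smallest p, or else the 2 with the highest counts) and the study's 5 genes. Members of the text outside this rule were chosen after their values were seen. The libraries, lists and named-gene rule were chosen with earlier results of these data known, so lists carry counts and medians and no test. Of 499 list symbols 5 were not matched, and a list of mitochondrially encoded genes matched none. Small RNA libraries were not analysed here, and some list members are not reported here by name.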

Additional observations from a re-analysis of the deposited data

Results flagged for a closer look

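The KD libraries left out of the 10 were not used in the main comparison, and their signal on its called genes was compared with the Ctrl libraries of their strain. In B6 KD 3, which held 83.1% of the Ctrl mean of Hp1bp3, 89.4% of the called higher genes exceeded every B6 Ctrl library and 95.0% of the called lower genes fell short of every one, against 34.1% and 40.4% of all fitted genes. In D2 KD 3, which held 102% of the Ctrl mean, 23.6% of the called lower genes fell short of every D2 Ctrl library, against 18.5% of all fitted genes, and 13.3% of the called higher genes exceeded them, against 18.0%. These shares were not tested.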

How the results depend on the processing

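The 770 genes called over the 10 libraries became 1887 with DESeq2 (992 higher, 895 lower), 288 with no strain term, 2 with the left-out D2 KD library added and 224 within the libraries poor in choroid plexus transcripts, the last an alternative chosen after seeing the data. Leaving out 1 library at a time gave 136 to 1783. The count stayed within 1.5 times under limma-voom, median-ratio scaling, no low-count filter, the newer quasi-likelihood method, no robust estimation, group means, the library total or choroid score as covariate, the added B6 KD library, and the rule of Hp1bp3 under 90% of the own-strain Ctrl mean, also chosen later, which keeps 5 KD libraries. None of the called genes changed sign under any of these, which reuse all or part of the same libraries. Of the 74 genes followed singly, 70 lost their call with the D2 library added and 29 with no strain term, and none reversed. The 12-library count of 0 became 905 with DESeq2 and 0 to 877 when 1 library was left out (877 without D2 KD 3, 569 without D2 Ctrl 3, 2 without B6 KD 3, 0 otherwise). In B6 the 912 calls became 1982 with DESeq2, 418 over all 12 libraries and 96 to 1349 without 1 library. In D2 the 7 calls became 356 with DESeq2, 0 over all 12 libraries and 1 to 314 without 1 library, and the interaction's 0 became 117 with DESeq2 and 0 to 7. The Hp1bp3 log2 fold change of -0.57 was -0.48 with either left-out library added and under the 90% rule, and -0.65 within the choroid-poor libraries. The cause of these shifts was not tested, beyond the loss of libraries itself. No paired analysis was possible because replicate numbers were given in deposit order and pair no libraries. Depth (18.2 M to 39.4 M counts) limits genes with few reads, such as the lymphocyte markers, and with 2 effective KD libraries per strain the spread within a strain is poorly known.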

Other observations

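The left-out B6 library exceeded every other B6 library in 108 of the 489 genes called higher (22.1%), a share near that of all fitted genes (22.7%). Of the 280 called lower, 124 (44.3%) were lower there than in every other B6 library, against 29.6% of all fitted genes. These shares were not tested. Genes named here were chosen after their values were seen. Vgf was at 12500 in B6 KD 3, against 6402 and 5228 in the B6 effective KD libraries. Ache, which breaks down acetylcholine, was at 3011 against 1936 and 1869, and Ret at 431 against 217 and 217. Timp1 was at 789 against 162 and 78.5, and Cdkn1a at 1092 against 548 and 685. Fosb, an immediate early transcription factor, was at 2430 against 262 and 279, and Homer1, a postsynaptic scaffold gene induced by activity, at 8049 against 3135 and 3056. The interferon genes went the other way, with Irf7 at 883 against 2132 and 3328. In D2 KD 3 the same genes lay near D2 Ctrl, with Vgf at 4714, Ret at 257 and Cdkn1a at 234.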
